A study of Mus musculus with 6 samples.

Results

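The Elavl and Celf genes of the mouse, which encode RNA-binding proteins, were examined in the hippocampus of mice with and without a Rbfox1 transgene. The members are Elavl1 to Elavl4 and Celf1 to Celf6, and an isoform was counted as a member when its transcript name without the final number was 1 of these 10 gene symbols. This gave 118 isoforms, 35 of Elavl and 83 of Celf genes, of 133944 isoforms and 53354 gene symbols in the deposited matrix. RNA came from the hippocampus of 3 mice of the N-cre genotype and 3 of the N-cre;Fox1 genotype, all C57BL/6 and 3 months old, with 1 library per mouse. Both genotypes carry the Nestin-Cre transgene, in which the Nestin promoter drives Cre. The study characterized this line in the hippocampus by reporter staining and places Cre activity there in neurons. N-cre;Fox1 mice carry in addition a Rbfox1 cDNA in the Gt(ROSA)26Sor locus, which a CAG promoter expresses once Cre has removed a loxP-flanked stop. In mm10, Elavl1 (ENSMUSG00000040028.10) lies at chr8:4285382-4325413, Elavl2 (ENSMUSG00000008489.18) at chr4:91250763-91400785, Elavl3 (ENSMUSG00000003410.8) at chr9:22015005-22052023 and Elavl4 (ENSMUSG00000028546.17) at chr4:110203722-110351909, all on the minus strand. Celf1 (ENSMUSG00000005506.16, chr2:90940382-91019497), Celf3 (ENSMUSG00000028137.9, chr3:94478295-94492198) and Celf6 (ENSMUSG00000032297.11, chr9:59577917-59607292) lie on the plus strand. Celf2 (ENSMUSG00000002107.18, chr2:6539694-7509563), Celf5 (ENSMUSG00000034818.16, chr10:81459227-81482709) and Celf4 (ENSMUSG00000024268.16, chromosome 18) lie on the minus strand. The study asked which transcripts respond to more Rbfox1, and the comparison here is whether those of 2 other families of RNA-binding proteins did.

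Elavl proteins, also called Hu proteins, bind AU-rich and U-rich stretches, mostly in 3′ untranslated regions (UTRs), where they stabilize mRNAs and favour their translation, and they also act on splicing in the nucleus. Elavl1 (HuR) is made in nearly all cells, while Elavl2 (HuB), Elavl3 (HuC) and Elavl4 (HuD) are mainly neuronal. Celf proteins bind GU-rich stretches and change splicing, deadenylation, decay and translation. Celf1 and Celf2 are made in many tissues, whereas Celf3, Celf4, Celf5 and Celf6 are found mainly in the nervous system. Proteins of both families hold 3 RNA recognition motifs, with a linker before the last of them that alternative splicing can change.

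The libraries held 40463587 to 62141336 read pairs, of which the 10 members took 0.1995% to 0.2063%. The study reports a modest increase of Rbfox1 mRNA, without showing the data, and of Rbfox1 protein on immunoblots of N-cre;Fox1 hippocampi. In these libraries Rbfox1 had normalized counts, summed over its isoforms, of 15286, 14456 and 14698 in the N-cre and 15939, 13571 and 15283 in the N-cre;Fox1 mice. The genotypes thus overlapped here in the gene that the transgene expresses, and this sum does not check the labels. Markers of neurons overlapped as well: the summed level of 6 markers was 4202 to 4439 TPM, a transcript level corrected for length and depth, in N-cre and 4153 to 4359 TPM in N-cre;Fox1 mice, and edgeR's test gave 0 of 6 an unadjusted p under 0.05. The summed level of 5 astrocyte markers was 983 to 1004 TPM in N-cre and 1078 to 1196 TPM in N-cre;Fox1 mice, where it was higher in all 3. By edgeR's test 3 of the 5 (Gfap, Aqp4 and Gja1) were higher at an unadjusted and 0 at an adjusted p under 0.05. The other 2 went the other way, with log2 fold changes of -0.14 for Aldh1l1 and -0.02 for Slc1a3, so the markers did not move together. Summed levels of 5 markers each of oligodendrocytes, microglia and endothelium overlapped between the genotypes, and those of choroid plexus ran from 13.4 to 124 TPM in N-cre and from 11.98 to 258 TPM in N-cre;Fox1 mice. A library of each genotype stood apart in these markers: normalized counts of Ttr, which encodes transthyretin, were 274, 672 and 111010 in the N-cre and 581, 251900 and 393 in the N-cre;Fox1 mice. Xist exceeded 1000 counts in 1 mouse of each genotype. Whether any of these bears on the values below was not tested, and in tissue RNA fewer cells of a type and less RNA per cell cannot be told apart.

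The 3 neuronal Elavl genes shared a layout that Elavl1 lacks. In the reference isoforms Elavl2-201, Elavl3-201 and Elavl4-202, exons of 104, 154, 226 and 39 bases followed each other in the same order, while Elavl1-201 had the exons of 104, 154 and 226 bases but none of 39. The exon of 39 bases codes for 13 amino acids of the linker before the last RNA recognition motif. Its sequence is shown because its use could be measured in 2 of the genes. It lies on the minus strand in all 3, at chr4:91254141-91254179 in Elavl2, at chr9:22024674-22024712 in Elavl3 and at chr4:110209740-110209778 in Elavl4 (mm10). The capitals mark bases that differ from Elavl4, at 6 positions of 39 in Elavl2 and at 4 in Elavl3, and Elavl2 and Elavl3 differed from each other at 5.
Elavl4: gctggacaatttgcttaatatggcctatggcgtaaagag
Elavl3: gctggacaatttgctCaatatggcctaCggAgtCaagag
Elavl2: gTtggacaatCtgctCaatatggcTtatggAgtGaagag

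Elavl4 has a second choice directly after this exon. Its last exon starts at either of 2 acceptors, and the upstream one adds 42 bases of coding sequence (14 amino acids) at chr4:110206660-110206701 on the minus strand. Among the Celf genes, an exon of 144 bases (48 amino acids) of Celf2, at chr2:6549832-6549975 on the minus strand, is shown because it encodes the beginning of the last RNA recognition motif.
Elavl4 extension: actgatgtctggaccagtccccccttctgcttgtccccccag
Celf2 exon: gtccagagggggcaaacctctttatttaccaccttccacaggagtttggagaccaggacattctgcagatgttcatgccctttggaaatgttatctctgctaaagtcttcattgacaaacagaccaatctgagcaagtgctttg

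All 10 genes were expressed in every mouse. Their levels, given as TPM so that genes of different length can be compared, spanned 24.3 to 323 TPM as means over the 6 mice. Celf4 had the highest level of the 10, at 317, 326 and 331 TPM in the N-cre and 325, 310.1 and 327 TPM in the N-cre;Fox1 mice. Celf3 followed with a mean of 257 TPM, Celf5 with 221 TPM, Elavl3 with 145 TPM, Celf2 with 130.2 TPM, Celf1 with 78.3 TPM, Elavl2 with 51.9 TPM, Elavl4 with 41.2 TPM, Elavl1 with 27.2 TPM and Celf6 with 24.3 TPM. The ranges over the 6 mice of neighbours in this order did not overlap, except for Elavl1 (25.8 to 28.3 TPM) and Celf6 (23.4 to 26.4 TPM), which could not be put in order. Celf4, Celf3 and Celf5 stood above 97.7%, 96.8% and 96.2% of the tested genes in level, and Celf6 above 63.6%. The levels include isoforms not labelled protein coding, which made up on average 37.8% of the Celf3 and 13.3% of the Celf5 level. The order is therefore not one of protein-coding transcripts.

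**Figure D1:**
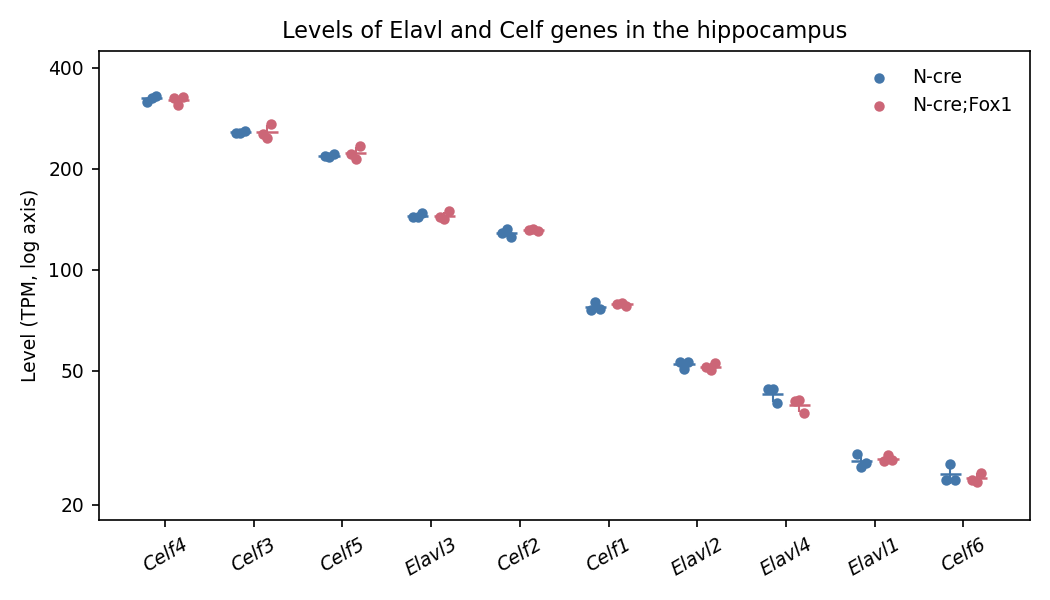
Level of each Elavl and Celf gene (TPM, log axis) in 3 mice of each genotype (N-cre, N-cre;Fox1), with points for mice, horizontal lines for means and vertical lines for the SD. Means run from 323 TPM for Celf4 to 24.3 TPM for Celf6, and the ranges of neighbours overlap only between Elavl1 and Celf6.

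Within the Elavl family, Elavl3 made up more than the other members together. Its share of the summed Elavl level was 53.4%, 54.4% and 55.2% in the N-cre and 54.7%, 54.3% and 55.9% in the N-cre;Fox1 mice, against mean shares in N-cre mice of 19.6% for Elavl2, 16% for Elavl4 and 10.1% for Elavl1. In the Celf family the shares in N-cre mice were 31.5% for Celf4, 24.9% for Celf3, 21.2% for Celf5, 12.5% for Celf2, 7.53% for Celf1 and 2.38% for Celf6. The summed Celf level, 1032 ± 8.84 TPM (SD, n = 3) in N-cre and 1036 ± 30.5 TPM (SD, n = 3) in N-cre;Fox1 mice, was several times the summed Elavl level of 267 ± 2.79 TPM (SD, n = 3) and 263 ± 3.22 TPM (SD, n = 3). Both sums overlapped between the genotypes.

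The genotypes did not differ past the threshold in the sum of any Elavl or Celf gene. With edgeR's quasi-likelihood test and Benjamini-Hochberg adjustment over 18924 genes, 5 (0.0264%) of all genes but 0 of the 10 passed at an adjusted p of 0.05. Without adjustment 1172 (6.19%) of all genes and again 0 of the 10 passed. DESeq2's Wald test, which called 50 genes in all, and limma-voom, which called 5, also called 0 of the 10. The 95% intervals were narrow, from 0.877 to 1.09-fold at their outermost over the 10 genes, so that changes of the summed transcripts beyond these bounds lie outside every interval.

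By normalized counts, Elavl2 was the only one of the 10 whose genotypes did not overlap. By TPM Elavl2 overlapped too, at 53.2, 50.5 and 53.1 TPM in the N-cre and 51.25, 50.3 and 52.97 TPM in the N-cre;Fox1 mice. Its normalized counts were 3857, 3708 and 3734 in the N-cre and 3626, 3460 and 3679 in the N-cre;Fox1 mice, so that all 3 N-cre;Fox1 mice lay below all N-cre mice, as happens in either direction for 12.1% of all tested genes. The log2 fold change was -0.07 (SE 0.0360), with an interval from -0.15 to 0.01 (edgeR, adjusted p = 0.820), and without N-cre;Fox1 replicate 2 it was -0.04. Elavl4 had counts of 3220, 3013 and 2859 in the N-cre and 2799, 2906 and 2845 in the N-cre;Fox1 mice, with an overlap by 1 N-cre mouse. Its log2 fold change of -0.09 (SE 0.0449) was the largest in size of the 10 (edgeR, adjusted p = 0.813). It was -0.04 without N-cre replicate 1 and -0.14 without both libraries high in choroid plexus markers.

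Elavl3, the most abundant Elavl gene, had normalized counts of 14702, 14528 and 14878 in the N-cre and 14607, 14070 and 15161 in the N-cre;Fox1 mice, which enclosed the N-cre values. Elavl1, the ubiquitous member, had counts of 3426, 3161 and 3234 in the N-cre and 3276, 3354 and 3299 in the N-cre;Fox1 mice, all 3 within the N-cre range. Their log2 fold changes were -0.01 (SE 0.0379) and 0.02 (SE 0.0380), with adjusted p-values of 0.990 and 0.983 by edgeR.

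Of the broadly expressed Celf genes, Celf1 had normalized counts of 11073, 11948 and 11113 in the N-cre and 11853, 11814 and 11515 in the N-cre;Fox1 mice, and Celf2 had 19015, 19479 and 18528 in the N-cre and 19515, 19022 and 19295 in the N-cre;Fox1 mice. The genotypes overlapped for both, at log2 fold changes of 0.04 (SE 0.0383) and 0.02 (SE 0.0374). The 4 neural Celf genes had log2 fold changes between -0.02 and -0.01 and overlapped too. N-cre;Fox1 replicate 3 had the highest count of the 6 mice in Celf3, Celf4 and Celf5, at 14003, 20991 and 17846, and replicate 2 of that genotype had the lowest, at 12679, 19484 and 16319. Replicate 2 is 1 of the libraries high in choroid plexus markers, and without both of these the log2 fold changes of Celf3, Celf4 and Celf5 were 0.03, 0.02 and 0.03, with 0 of the 10 genes called by edgeR.

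**Figure D2:**
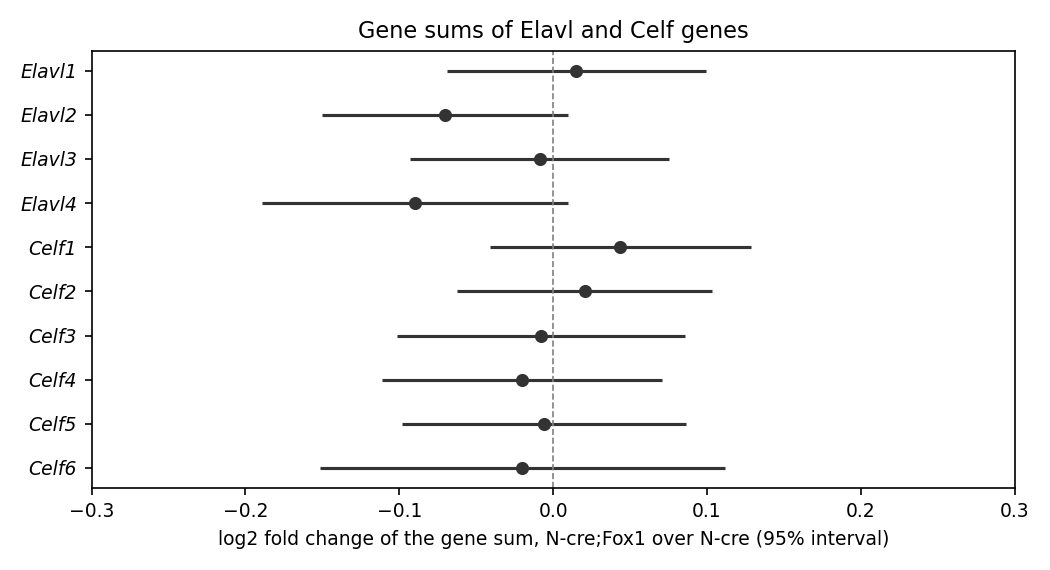
Log2 fold change of the gene sum, N-cre;Fox1 over N-cre, with its 95% interval from edgeR's quasi-likelihood fit for each Elavl and Celf gene. All 10 intervals cross 0, and the estimates of Elavl4 (-0.09) and Elavl2 (-0.07) lie furthest to the left.

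Within both families the genes differed in how their reads were divided between isoforms. RSEM assigns a read pair that fits several isoforms to them in fractions, so an isoform's value depends on how much of its sequence it has to itself. Of the 118 isoforms, 16 had a count of 0 in all mice, 31 had counts but did not pass the filter, which asks for counts in enough mice, and 71 were tested. The unique share of an isoform is given below as the percent of its windows of 100 bases that no other isoform of the gene holds.

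Elavl1 was read out almost wholly as 1 isoform, Elavl1-201, whose share of the gene's read pairs was 99.02%, 100% and 99.9% in the N-cre and 99.2%, 100% and 99.4% in the N-cre;Fox1 mice. Elavl3 was nearly as simple: Elavl3-201 held 92.6%, 92.0% and 92.2% in the N-cre and 92.3%, 91.9% and 92.3% in the N-cre;Fox1 mice, and Elavl3-203 nearly all the rest. In 79.2% of the windows of Elavl3-201 and 67.2% of those of Elavl3-203 the sequence was unique within the gene. Some windows of these isoforms, 157 in all, were shared with the predicted gene Gm49318 on the same strand. Reads there may be divided between the genes if the annotation used by RSEM held Gm49318, which was not checked.

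Elavl2 had 5 isoforms with at least 5% of its read pairs in the mean of the 6 mice. The first, Elavl2-208, had shares of 45.8%, 45.0% and 45.3% in the N-cre and 41.4%, 46.7% and 43.9% in the N-cre;Fox1 mice. It holds the exon of 39 bases, as do Elavl2-201 with 19.2% to 23.1%, Elavl2-209 with 9.2% to 12.1% and Elavl2-206 with 4.0% to 6.8% over the 6 mice. Elavl2-207, which lacks the exon, had 14.1%, 14.6% and 13.5% in the N-cre and 13.4%, 11.6% and 11.3% in the N-cre;Fox1 mice, which lay below all N-cre mice.

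Elavl4 was divided in a way that changed from mouse to mouse within a genotype. Elavl4-201 had normalized counts of 765, 319.7 and 213 in the N-cre and 21.7, 693 and 614 in the N-cre;Fox1 mice. Elavl4-204 had expected counts of 253 and 472 in N-cre replicate 3 and N-cre;Fox1 replicate 1, and 0 in the other 4 mice. Yet the sum of Elavl4-202 and Elavl4-204, which share their first exon and differ at the acceptor of the last exon, was 40.6%, 41.7% and 39.4% in the N-cre and 44.7%, 46.8% and 35.7% in the N-cre;Fox1 mice. Elavl4-201 and Elavl4-203, which differ at the same acceptor, together held 43.2%, 40.9% and 42.6% in the N-cre and 36.3%, 41.6% and 46.8% in the N-cre;Fox1 mice. Only 97 of the 4008 windows of Elavl4-201 were absent from Elavl4-203. Over the 6 mice the shares ran from 27.8% to 46.8% for Elavl4-202, from 17.8% to 35.5% for Elavl4-203 and from 3.0% to 6.7% for the noncoding Elavl4-211. These pairs, and Elavl4-204, were chosen after the shares had been seen.

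Celf1 showed the same in its main isoforms. The share of Celf1-203 was 5.4%, 30.7% and 40.5% in the N-cre and 18.1%, 22.7% and 10.3% in the N-cre;Fox1 mice, and that of Celf1-208 was 44.4%, 15.1% and 8.5% in the N-cre and 30.6%, 21.3% and 29.98% in the N-cre;Fox1 mice. N-cre replicates 1 and 3 were thus at opposite ends for both isoforms. The sum of the pair, 49.9%, 45.8% and 49.0% in the N-cre and 48.8%, 43.99% and 40.3% in the N-cre;Fox1 mice, varied little. They differ in their first exon, and 106 of the 7515 windows of Celf1-203 were absent from Celf1-208. Neither isoform had a window that no other Celf1 isoform holds. The other main isoforms were Celf1-202 with 20.5% to 31.3%, Celf1-207 with 10.2% to 22.7% and Celf1-205 with 5.7% to 10.3% over the 6 mice.

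**Figure D3:**
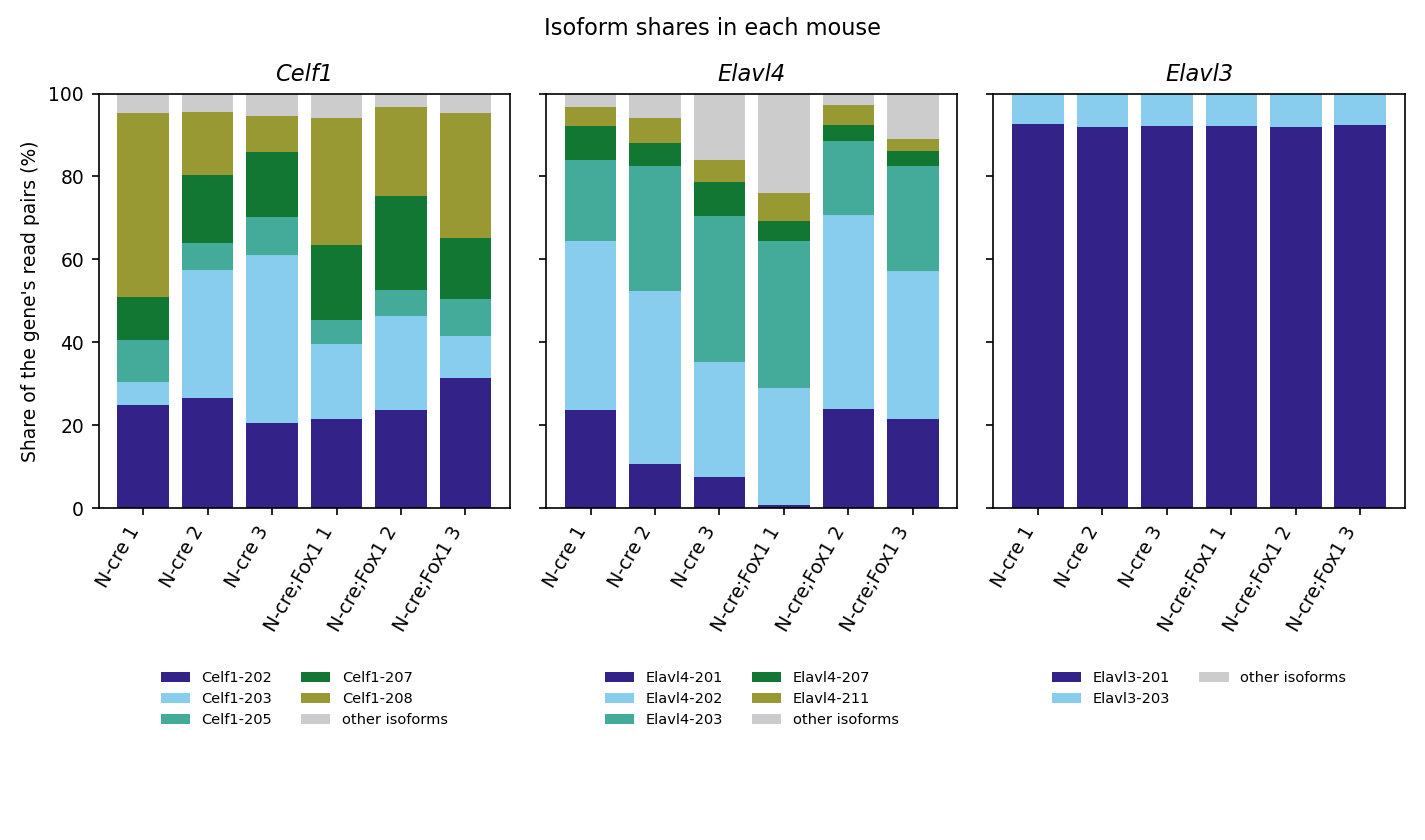
Share of the gene's read pairs (percent) taken by each isoform with a mean share of at least 5%, and by all others, in each mouse, for Celf1, Elavl4 and Elavl3. Bars of Celf1 and Elavl4 differ between mice of 1 genotype, with Celf1-203 from 5.4% to 40.5% in N-cre mice, while those of Elavl3 are nearly the same in all 6.

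Celf2-202 had 53.4%, 54.7% and 53.9% of the read pairs of Celf2 in the N-cre and 61.5%, 49.1% and 52.1% in the N-cre;Fox1 mice, followed by Celf2-214 with 26.3% to 32.7% and Celf2-201 with 8.3% to 13.4% over the 6 mice. Celf4-202 had 62.9%, 62.6% and 61.3% of the Celf4 read pairs in the N-cre and 60.5%, 62.7% and 61.2% in the N-cre;Fox1 mice. Celf5-201 held between 89.0% and 91.5% of Celf5 and Celf6-201 between 72.4% and 75.9% of Celf6 in every mouse. Lesser isoforms varied more in proportion: Celf6-202 had 12.8% to 19.1% and Celf6-204 4.1% to 10.8% over the 6 mice. In Celf4 the shares were 11.98% to 14.1% for Celf4-203, 9.4% to 11.9% for Celf4-207 and 5.4% to 6.2% for Celf4-206. Celf4-201 had 5.6%, 5.5% and 5.9% in the N-cre and 6.0%, 6.4% and 7.0% in the N-cre;Fox1 mice, which did not overlap. Celf5 shares 452 windows with Gm16105, a gene on the opposite strand, and the libraries were made with a stranded kit.

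Of the 10 genes, Celf3 had the largest share of read pairs in isoforms not labelled protein coding, most of which retain introns. The 7 Celf3 isoforms not labelled protein coding, 5 of them labelled retained intron, held 33.7%, 34.3% and 33.2% of the gene's read pairs in the N-cre and 34.5%, 36.1% and 34.2% in the N-cre;Fox1 mice. By read pairs, this share was in the other members at most 6.65% in any mouse. Per transcript length the contrast was smaller, with 36.2% to 39.5% in Celf3 against up to 24.6% in Elavl4 and 14.8% in Celf5. Celf3-210, which retains 1 intron and extends another exon at its donor, was the second isoform of the gene with 18.8% to 22.3%, after the protein-coding Celf3-215 with 40.8% to 43.1%. Celf3-208 had 9.6% to 15.04%, Celf3-201 6.7% to 11.0% and Celf3-211, also labelled retained intron, 4.7% to 7.1%. Libraries were made from total RNA, which can hold unspliced transcripts.

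No isoform of the 10 genes passed the threshold. The same test over 50556 isoforms, with edgeR, called 0 of the 71 and 0 (0%) of all isoforms. DESeq2's Wald test, which called 215 isoforms in all, and limma-voom, which called 0, also called 0 of the 71. At an unadjusted p under 0.05 stood 3 of the 71, against 2419 (4.78%) of all isoforms. Normalized counts did not overlap between the genotypes for 10 of the 71 (14.1%), against 11.5% of all isoforms. A share near that of all isoforms is not a result about these families.

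Elavl4-207 (ENSMUST00000106603.8), the Elavl4 isoform without the exon of 39 bases, had the lowest p of the 71. Its normalized counts were 268, 161 and 237 in the N-cre and 138, 116 and 100.1 in the N-cre;Fox1 mice, so that all N-cre;Fox1 mice lay below all N-cre mice. The log2 fold change was -0.91 (SE 0.234), with a 95% interval from -1.48 to -0.35, and edgeR's p was 0.00717, or 0.900 after adjustment. Over the alternatives the adjusted p lay between 0.154, in DESeq2's Wald test, and 1.00. Of the windows of this isoform 5.6% were unique.

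Celf5-206 (ENSMUST00000141207.7), a retained-intron isoform, had normalized counts of 156, 117 and 147 in the N-cre and 174, 207 and 218 in the N-cre;Fox1 mice, all above the N-cre mice. Its log2 fold change was 0.51 (SE 0.170), and edgeR's p was 0.0223, or 0.990 after adjustment. Elavl2-207 (ENSMUST00000107118.7) had counts of 544, 543 and 505 in the N-cre and 484, 402 and 415 in the N-cre;Fox1 mice, at a log2 fold change of -0.29 (SE 0.1035), and edgeR's p was 0.0288, or 0.990 after adjustment. Elavl4-207 and Elavl2-207, which both lack the 39-base exon of their gene, thus had their 3 lowest counts in N-cre;Fox1 mice, but neither change passed the test. Elavl2-205, which also lacks the exon, went the other way, with 40.5, 34.5 and 25.7 in the N-cre and 56.3, 44.1 and 42.8 in the N-cre;Fox1 mice.

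The remaining isoforms whose genotypes did not overlap were Celf2-205 and Celf3-202, higher in N-cre;Fox1 mice, and Celf2-227, Elavl2-208, Celf4-202 and Celf3-204, lower in them. Celf3-202, another retained-intron isoform, had normalized counts of 196, 106 and 144 in the N-cre and 200.3, 199 and 261 in the N-cre;Fox1 mice. Celf2-205 had at most 12.8 normalized counts in any mouse. Celf4-202, the main Celf4 isoform, had 12869, 12963 and 12825 in the N-cre and 12535, 12221 and 12813 in the N-cre;Fox1 mice, at a log2 fold change of -0.04 (SE 0.0306). Unadjusted p-values of these 6 isoforms in edgeR's test lay above 0.05.

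Isoform shares, which set each isoform against the rest of its gene, gave a like picture. Of the 71 shares 9 did not overlap between the genotypes (12.7%), with 5 of them higher in N-cre;Fox1 mice and 4 lower, against 11.2% of all isoforms of genes with at least 2 tested isoforms. An exact two-sided permutation test of 3 against 3 mice cannot give a p below 0.1, which these 9 reached, and 71 shares were compared. Taken per transcript length, 10 shares did not overlap, a count that was not set against all isoforms on that scale. The test of edgeR for differential isoform usage (diffSpliceDGE) called 105 (0.991%) of 10591 genes at an adjusted p of 0.05 and 0 of the 10, of which 0 passed without adjustment too, and limma's diffSplice, which called 55 genes, also called 0 of the 10. In simulated data the usage test made more false calls than its nominal rate.

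The share of isoforms not labelled protein coding did not overlap between the genotypes in 2 of the 9 genes that have such isoforms. It did not overlap in 1041 (10.1%) of 10277 genes with both classes. In Celf5 it was 2.37%, 2.44% and 2.26% in the N-cre and 2.88%, 2.61% and 2.93% in the N-cre;Fox1 mice, higher by 0.45 percentage points (exact permutation p = 0.1). In Celf4 it was 2.28%, 2.51% and 2.52% in the N-cre and 2.22%, 2.24% and 2.16% in the N-cre;Fox1 mice, a difference of -0.23 percentage points (exact permutation p = 0.1). The Celf3 share was 1.197 percentage points higher in N-cre;Fox1 mice and overlapped (exact permutation p = 0.2). These calls are by read pairs and depend on the scale. Per transcript length Celf3 did not overlap, with 37.1%, 36.2% and 37.4% in the N-cre and 37.97%, 39.5% and 38.4% in the N-cre;Fox1 mice. On that scale Celf5 overlapped, with 12.4%, 13.1% and 11.8% in the N-cre and 14.7%, 12.96% and 14.8% in the N-cre;Fox1 mice. Celf4 overlapped on neither scale. All isoforms in the Celf5 class are labelled retained intron.

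Isoforms were next grouped by the stretch of sequence that tells them apart, a step chosen after the isoform values had been seen. For each cassette exon, retained intron, alternative acceptor or alternative donor, the level per length of the isoforms that hold the stretch was divided by that of all isoforms that either hold it or skip it. These levels are RSEM's estimates for whole isoforms, not counts of reads across the splice junctions. Isoforms on either side of a choice can differ in other places too, so a value need not be specific to the stretch. Choices with at least 100 read pairs and a mean between 5% and 95% were kept. There were 34 of them in 9 members, all but Elavl1, among 16836 in all genes. Genotypes did not overlap in 3 of the 34, against 11.4% of all choices.

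The Elavl4 exon of 39 bases was 1 of the 3. It was present in 92.4%, 95.3% and 92.5% in the N-cre and in 95.7%, 96.3% and 96.6% in the N-cre;Fox1 mice, 93.4% ± 1.65 and 96.2% ± 0.436 (SD, n = 3 each). N-cre;Fox1 mice were higher in 3 of 3 by 2.84 percentage points in the mean (exact permutation p = 0.1, the smallest possible). Only Elavl4-207 skips the exon, so this is not independent of that isoform's count. Elavl4-207 is also alone in its first exon group, so use of the 39-base exon and of that first exon cannot be told apart here. The matching exon of Elavl2 was present in 84.4%, 83.9% and 85.7% in the N-cre and in 84.3%, 86.0% and 87.0% in the N-cre;Fox1 mice, which overlapped (exact permutation p = 0.3). Elavl3 has no annotated isoform that skips its exon.

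Isoforms with the Elavl4 extension of 42 bases held, per length, 55.3%, 61.5% and 56.6% in the N-cre and 52.8%, 57.2% and 56.4% in the N-cre;Fox1 mice. By read pairs they held 65.7%, 76.5% and 68.8% in the N-cre and 67.1%, 67.5% and 63.3% in the N-cre;Fox1 mice. The isoforms compared leave out Elavl4-207. They include the noncoding Elavl4-211, whose mean share of the gene was 5.1% by read pairs and 19.4% per length. The genotypes overlapped on both scales, and the single isoforms that carry the extension ranged more widely. A second choice without overlap lies at the acceptor of the last exon of Elavl2, where 3 bases are added or left out: among isoforms without the 39-base exon the longer form had 84.6%, 86.6% and 88.9% in the N-cre and 77.9%, 78.8% and 79.8% in the N-cre;Fox1 mice (exact permutation p = 0.1). It rests on 406 to 680 read pairs, of which its short form, Elavl2-205 alone, had 19.6 to 57.1. Its long form is Elavl2-207 in effect, as the other isoform with it had a count of 0 in all mice. Elavl2-207 and Elavl2-205 did not overlap in opposite directions, as given above, so their ratio could not overlap. They also differ in their first exon. Among isoforms with the exon the same 3 bases were used in 40.6%, 35.2% and 37.9% in the N-cre and 40.7%, 39.2% and 44.4% in the N-cre;Fox1 mice, which overlapped.

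The last of the 3 was a Celf3 intron of 199 bases, retained in 10.5%, 8.9% and 10.1% in the N-cre and in 12.1%, 10.6% and 10.6% in the N-cre;Fox1 mice (exact permutation p = 0.1). Only Celf3-202, whose counts did not overlap as given above, and Celf3-211, whose counts overlapped, hold this intron. The value is therefore not independent of the Celf3-202 counts. By shares of read pairs in place of levels per length the genotypes overlapped for this intron. The Celf2 exon of 144 bases was present in 76.6%, 73.9% and 77.0% in the N-cre and 78.3%, 73.4% and 75.2% in the N-cre;Fox1 mice. A Celf4 exon of the same length had 83.8%, 84.8% and 82.8% in the N-cre and 83.0%, 83.9% and 84.1% in the N-cre;Fox1 mice. Both overlapped between the genotypes. The Celf4 value sets Celf4-201 and Celf4-202 against Celf4-206 alone. It leaves out Celf4-203 and Celf4-207, which hold a form of this exon of 84 bases, so it is not the exon's share in all Celf4 transcripts.

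**Figure D4:**
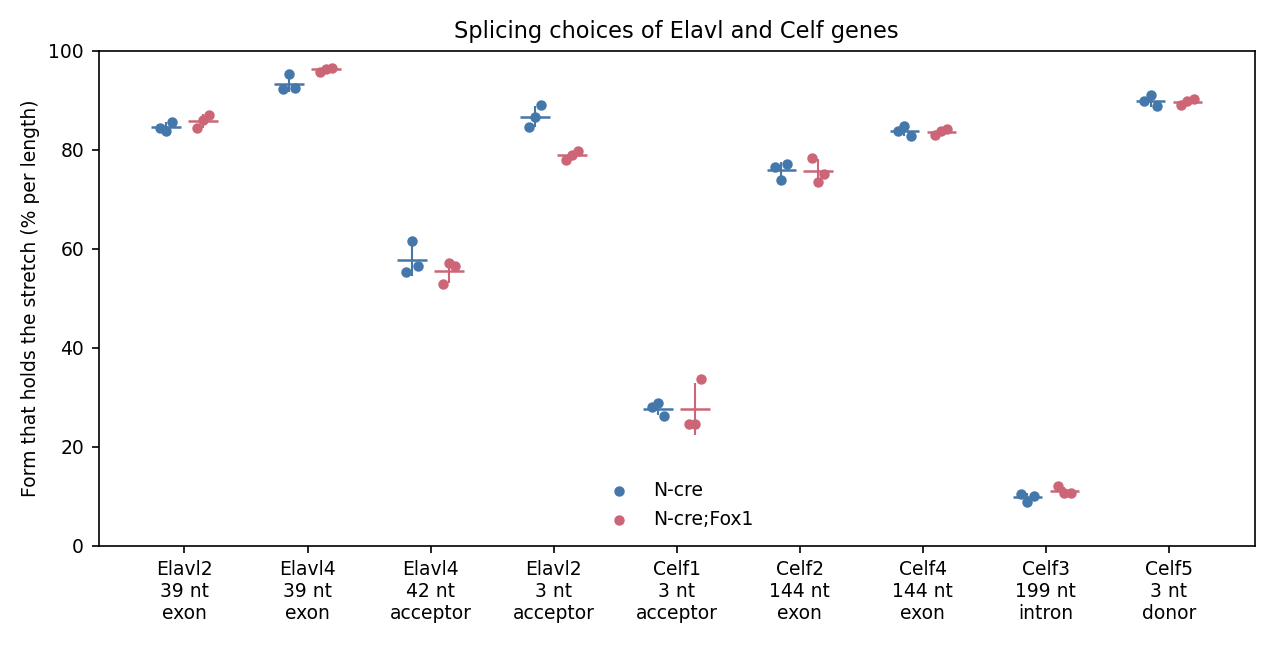
Percent of the level per length held by isoforms with an alternative stretch, among the isoforms compared, for 9 splicing choices of Elavl and Celf genes. Values are from 3 mice of each genotype (N-cre, N-cre;Fox1), with points for mice, horizontal lines for means and vertical lines for the SD. Genotypes do not overlap for the Elavl4 39 nt exon, the Elavl2 3 nt acceptor among isoforms without the 39 nt exon, and the Celf3 199 nt intron, and they overlap for the 6 others.

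Several alternative splice sites of the members lie close together. Of 22 choices between acceptors or donors in the members, 11 (50%) differ by 3 bases, in 7 of the genes, while 693 of 5224 (13.3%) do in all genes, and this difference was not tested. The Elavl2 acceptor before the last exon counts in 2 of the 11, once with and once without the 39-base exon. Celf2, Elavl4 and Elavl1 have no such choice, and the others of the 22 differ by up to 3075 bases, in Celf1. In Elavl3 the 3-base choice sets Elavl3-201 against Elavl3-203. Of their windows 79.2% and 67.2% are unique within the gene, so the values are not specific to the 3 bases. The longer form was nearly fixed over the mice, at 88.3%, 87.5% and 87.7% in the N-cre and 87.9%, 87.3% and 87.99% in the N-cre;Fox1 mice. In Celf5 it was 89.8%, 91.0% and 88.7% in the N-cre and 89.0%, 89.9% and 90.2% in the N-cre;Fox1 mice. Celf4 has 3 of them; in 1 of them the longer form had 6.9% to 9.1%, in another 88.1% to 89.5% and in the third 29.1% to 32.1% over the 6 mice. Each such choice adds or removes 1 amino acid where it lies in coding sequence.

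First exons were compared among complete protein-coding isoforms, grouped by the donor of the first exon, also after the isoform values had been seen. Celf2 transcripts came from 3 main groups, the first at 59.96%, 60.9% and 61.8% in the N-cre and 67.6%, 57.8% and 59.7% in the N-cre;Fox1 mice. The distal group of Elavl4, made up of Elavl4-207 alone, had 9.25%, 5.90% and 9.27% in the N-cre and 5.59%, 4.40% and 3.82% in the N-cre;Fox1 mice, without overlap (exact permutation p = 0.1). As Elavl4-207 is also the isoform that skips the 39-base exon, this is not a separate observation. In Celf3 the group of Celf3-201, Celf3-213 and Celf3-215 had 60.9%, 63.2% and 61.9% in the N-cre and 63.4%, 69.3% and 63.9% in the N-cre;Fox1 mice. The genotypes did not overlap for this group either (exact permutation p = 0.1, the smallest possible). All other first exon groups compared in the members overlapped. How often such groups do not overlap over all genes was not computed. The Celf3 value therefore cannot be set against a background and is not a result about this gene. Celf1 was again the most variable, with its first group at 28.1%, 55.7% and 55.7% in the N-cre and 40.4%, 45.7% and 39.4% in the N-cre;Fox1 mice.

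The spread between mice of 1 genotype was small for gene sums and large for many isoforms. The pooled within-genotype SD of the gene sums was 1.98% to 5.13% of the mean over the 10 genes, with a median of 3.15%, against a median of 7.01% over all tested genes, which are mostly less abundant. For the 71 tested isoforms it ran from 1.69%, in Celf4-202, to 127%, in Elavl1-204, with a median of 17.8% against 19.1% over all isoforms, and it exceeded 25% in 25 of them. Among member isoforms with a mean count of at least 100, the median was 18.4% for the 30 with under 5% unique windows, 14.4% for the 12 with 5% to 20% and 7.61% for the 9 with 20% or more.

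**Figure D5:**
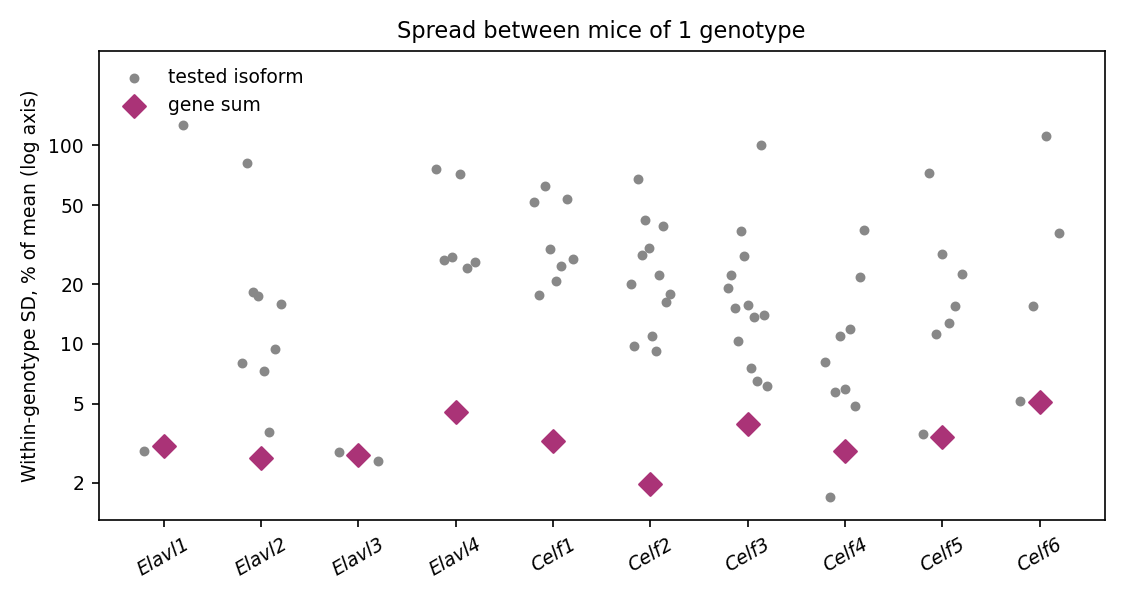
Within-genotype SD as a percent of the mean (log axis) for the gene sum (diamond) and each tested isoform (grey point) of the Elavl and Celf genes. Diamonds lie between 1.98% and 5.13%, and most isoforms of Celf1 and Elavl4 lie above 20%.

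Transcripts that Elavl proteins are known to bind were listed to see whether any moved. With edgeR, 0 of 15 passed at an adjusted and 2 at an unadjusted p of 0.05, the latter against 6.19% of all genes. Fold changes were above 0 for 6 and below 0 for 9, with a median log2 fold change of -0.01. Of those with the highest mean counts, Camk2a, a kinase of the postsynaptic density, had a log2 fold change of -0.02 (SE 0.0582) and Nrn1, an activity-induced neurite growth factor, had 0.03 (SE 0.0593). Of 10 transcripts that Celf proteins are known to bind or splice, edgeR called 0, also without adjustment, 5 lay above and 5 below 0, and the median was -0.01. Grin1, Mapt and Scn8a, which encode an NMDA receptor subunit, tau and a sodium channel, had log2 fold changes of -0.02 (SE 0.0490), 0.03 (SE 0.0435) and 0.01 (SE 0.0457). Of 14 other proteins that bind AU-rich elements or remove poly(A) tails, edgeR called 0, or 2 without adjustment against the same 6.19% of all genes, 8 lay above and 6 below 0, and the median was 0.00. Hnrnpd, Tia1 and Tial1, which bind AU-rich elements, had the highest counts, at -0.06 (SE 0.0335), -0.14 (SE 0.0387) and 0.00 (SE 0.0351), and edgeR's p for Tia1 was 0.00387, or 0.636 after adjustment.

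Rbfox proteins bind the hexamer TGCATG, so the 3′ UTRs of the 10 genes were searched for it on the transcribed strand, in the protein-coding isoform with the highest level per length. Within the first 500 bases after the stop codon it was found in Celf2 and Elavl3, 2 of 10 members, and in 1432 of 9895 genes (14.5%) with a 3′ UTR that long. Over whole 3′ UTRs there were 7 sites in 5 members, 2 of them overlapping in Elavl1, or 0.216 sites per 1000 bases against 0.361 over all genes. Elavl2, Celf3, Celf4, Celf5 and Celf6 held none. One site from each of the 5 genes is shown with 12 bases on either side and the hexamer in capitals, at position 201 after the stop codon in Celf2 (chr2:6545502-6545531, minus strand), 359 in Elavl3 (chr9:22018127-22018156, minus strand), 840 in Elavl1 (chr8:4288743-4288772, minus strand), 2070 in Elavl4 (chr4:110204245-110204274, minus strand) and 4002 in Celf1 (chr2:91017443-91017472, plus strand).
Celf2: acctttgaaattTGCATGtgacctcatcta
Elavl3: ccctccccacccTGCATGggatggcttagg
Elavl1: ctgtccacacatTGCATGcatggtgcccac
Elavl4: gaacccactaagTGCATGtagacaggactg
Celf1: aaaaacaagttgTGCATGtttcctgctgtt
A match in sequence does not show binding. The gene sums of these 5 genes had log2 fold changes between -0.09 and 0.04, as given above.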

How the data were processed

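Hippocampal total RNA from 3 N-cre and 3 N-cre;Fox1 mice was sequenced as paired reads from stranded libraries. According to the labels and the study's methods, the authors used Cutadapt 1.18 for trimming and STAR 2.5.2b with mm10 for mapping, and deposited expected counts per isoform from RSEM 1.3.0, neither normalized nor filtered. The expected counts were rounded, summed by gene symbol for gene tests, filtered with filterByExpr (minimum count 10, minimum total 15) and compared in edgeR 4.0.16 (R 4.3.3) with the robust quasi-likelihood test, TMM normalization, genotype as the only term and Benjamini-Hochberg adjustment at 0.05. Normalized counts are TMM-scaled to the mean library, and TPM was computed from expected counts and annotated lengths. The annotation used here was GENCODE M21 on GRCm38 (mm10), while the study names an earlier GENCODE release for RSEM. All 118 member isoforms matched M21 by identifier and version, and 3023 isoforms of the whole matrix did not. The sequences, lengths and shared windows come from M21. Isoform usage was tested with diffSpliceDGE, and shares with exact permutation tests in Python 3.11.15. The alternatives were DESeq2 1.42.0 size factors and Wald test, limma-voom and diffSplice of limma 3.58.1, other filters, counts not rounded, shares per length, the replicate number as a block, each mouse left out and, chosen after seeing the data, both libraries high in choroid plexus markers left out. The fits were tested on simulated data.

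Members, gene lists and tests were chosen with earlier results of these data known. Isoforms are named when they held at least 5% of a gene's read pairs, did not overlap between the genotypes or had an unadjusted p under 0.05, and list genes when past the threshold or among the 3 with the highest mean count. Elavl1-204, Elavl4-204 and Celf3-213 were named after their values were seen. The labels do not say whether mice came from separate litters. The p-values of edgeR set the difference between the genotypes against the spread between these mice, estimated with help from all features. Those of the permutation tests set it against all divisions of the mice into 3 and 3. Depth was 40463587 to 62141336 read pairs per mouse. The authors' EBSeq test was not repeated here. A gene that the naming rule picks from the lists is not reported here.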

Additional observations from a re-analysis of the deposited data

How the results depend on the processing

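The number of Elavl and Celf genes, isoforms and genes of differential usage called was 0 under every alternative run. Adjusted p-values over the alternatives were at least 0.656 for the 10 gene sums, 0.154 for the 71 isoforms and 0.0763 for isoform usage. Counts over all features moved more. Called genes (5) rose to 45 without a filter and 50 with DESeq2's Wald test, and ran from 2 to 28 with each mouse left out. Called isoforms (0) became 10 without a filter, 6 with at least 10 counts in every mouse, 215 with DESeq2's Wald test and 1 with counts not rounded, and stayed at 0 with each mouse left out. Genes called for isoform usage (105) fell to 69 with at least 10 counts in every mouse, 55 with limma's diffSplice and 50 with the replicate block, and ran from 148 to 186 with each mouse left out. Without both libraries high in choroid plexus markers, an alternative chosen after seeing the data, isoform usage called 263 genes, 22 member shares and 6 splicing choices did not overlap, and 0 member genes and isoforms were called. Fewer mice per genotype overlap less often by construction, so the shares and choices without overlap cannot be set beside those from all mice. The cause of the other differences was not tested.

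Member shares without overlap (9) ran from 13 to 19, and splicing choices (3) from 5 to 9, with each mouse left out, since fewer mice overlap less often by construction. With the replicate block, 19 of the 71 shares went the same way in 3 of 3 pairs with the same number. The numbers do not pair the mice: the correlations of same-numbered mice in their deviations from the group means were 0.378, -0.0951 and -0.211 over genes. The block changed no call of an Elavl or Celf gene or isoform. Per length in place of read pairs, the difference in the share of isoforms not labelled protein coding became -0.13 percentage points in Elavl1, 0.89 in Elavl2, -1.86 in Elavl4, -0.38 in Celf1, 0.06 in Celf2, 1.73 in Celf3, -0.85 in Celf4, 1.71 in Celf5 and -0.62 in Celf6. With each mouse left out it turned sign by read pairs in Elavl1 (-0.04 to 0.03), Elavl4 (-1.45 to 0.37), Celf2 (-0.04 to 0.10) and Celf6 (-0.45 to 0.11), and ran from 0.61 to 1.57 in Celf3. In Celf4 (-0.31 to -0.19) and Celf5 (0.39 to 0.55) it kept its sign.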
